A study of Homo sapiens with 6 samples.

Results

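The antisense RNAs of 12Z cells, and the genes on the opposite strand that they are named after, were compared between control cells and cells in which the long noncoding RNA LINC01133 was knocked down. The antisense RNAs were chosen by name and by raw count: the symbol ends in -AS1, -AS2 or -AS3, and the gene holds at least 20 counts in each of the 6 libraries. Of 1810 such symbols among 60660 gene identifiers, 1114 had any count, 411 entered the test across all genes and 241 met the limit, 222 of them ending in -AS1, 15 in -AS2 and 4 in -AS3. The sense partner is the gene named before the suffix, and it was selected on the same count limit. For 238 of the 241 the name points to a gene, which met the limit in 200 cases and did not in 38; the other 3 are HOXA-AS2, HOXA-AS3 and HOXD-AS2, named after gene clusters. The 200 pairs hold 199 different partners. The limit acts on the lowest library, so a gene that dropped below it in either group is not among the members.

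12Z is an established epithelial cell line derived from an endometriosis lesion. Control libraries came from cells given a non-targeting siRNA and knockdown libraries from cells given the siRNA LINC01133a at 10 nM, with the same lipid reagent and lysis at 72 h, and with 3 libraries per group that the study describes as biological replicates. A single siRNA stands for the knockdown, so effects of its sequence and of the loss of LINC01133 cannot be told apart. Polyadenylated RNA was sequenced with strand information, with 27742562 to 37551194 counts on genes per library.

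LINC01133 itself had normalized counts (counts scaled to the mean library size) of 813, 818 and 837 in control libraries, and 129.6, 131 and 138 in knockdown libraries. Its level in knockdown cells was 16.1% of that in control cells (log2 fold change -2.63, SE 0.0702, edgeR adjusted p = 3.45e-11). In bulk RNA, fewer cells with a transcript and less of it per cell cannot be told apart. Of the marker lists, 5 of 6 epithelial and 6 of 6 stromal genes met the count limit, while 0 of 3 endothelial genes did, with summed normalized counts of 20.7 to 25.9 in control and 22.9 to 30.1 in knockdown libraries. Of 4 leukocyte genes 1 met the limit and CD3E was at 0. The summed epithelial markers were 199879 to 210735 in control and 127683 to 133678 in knockdown libraries, the summed stromal markers 165280 to 183599 and 139670 to 147860, and the summed leukocyte markers 1617 to 1824 and 846 to 906. Their part in the changes below was not tested.

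An antisense RNA is transcribed from the DNA strand opposite to a gene, often from the same CpG-rich promoter in the other direction. Such transcripts are usually spliced, polyadenylated, far less abundant than the messenger RNA beside them, and many are short-lived in the nucleus, where the RNA exosome degrades them. Some are known to act on the partner in cis, by recruiting chromatin modifiers, by interfering with its transcription or by pairing with its RNA, and others act elsewhere in the cell or have no known function.

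In the annotation of the GRCh38 assembly (GENCODE release 44), 137 of the 200 pairs were head to head, that is, on opposite strands with an annotated transcript start of each within 1000 bp of the other. In 50 pairs the genes overlapped with more distant starts, in 9 the antisense gene lay inside the partner, in 3 the genes did not touch (DNAJC9-AS1, LYRM4-AS1 and SVIL-AS1), and in 1, FAM131B-AS2, both genes were annotated on the same strand. Exons of both genes overlapped in 169 pairs. The RefSeq promoter table (GRCh38.p14, 250 bases before to 50 after the start) held 190 of the 241 members. These windows had a median GC content of 66% and a median of 26 CpG sites, against 58.7% and 14 in all 35116 promoters of the table. A GC box (GGGCGG, either strand) was found in 64.2% of them, against 45.0% of all promoters. The CCAAT box (CCAAT, either strand) was found in 30.5% against 34.6%, and the TATA box (TATAAA, either strand) in 6.32% against 11.5%. All promoters were taken without regard to expression, while the members were selected by count. Promoters of expressed genes alone were not compared. A match describes these letters in the window and is no evidence of binding.

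Promoter windows of 4 head to head members are shown, since these RNAs cover the patterns described below: 1 that rose while its partner did not change detectably, 2 that rose with the partner, and 1 that fell. Capitals mark GC and CCAAT boxes on either strand, and each window is written 5′ to 3′ on the strand of the antisense RNA. The GTF3C2-AS2 window is chr2:27356515-27356814 (plus strand), that of MAGI2-AS3 chr7:79452707-79453006 (plus strand), that of NNT-AS1 chr5:43603181-43603480 (minus strand) and that of POT1-AS1 chr7:124929623-124929922 (plus strand). In each the partner is read from the other strand, with the closest annotated starts 141, 5, 4 and 1 bp apart in the same order.
GTF3C2-AS2: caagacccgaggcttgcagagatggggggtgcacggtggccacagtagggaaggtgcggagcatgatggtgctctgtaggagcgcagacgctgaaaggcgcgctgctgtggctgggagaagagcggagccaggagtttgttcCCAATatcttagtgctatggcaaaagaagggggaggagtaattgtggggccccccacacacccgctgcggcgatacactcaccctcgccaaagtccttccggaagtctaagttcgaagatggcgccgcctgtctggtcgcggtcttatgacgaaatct
MAGI2-AS3: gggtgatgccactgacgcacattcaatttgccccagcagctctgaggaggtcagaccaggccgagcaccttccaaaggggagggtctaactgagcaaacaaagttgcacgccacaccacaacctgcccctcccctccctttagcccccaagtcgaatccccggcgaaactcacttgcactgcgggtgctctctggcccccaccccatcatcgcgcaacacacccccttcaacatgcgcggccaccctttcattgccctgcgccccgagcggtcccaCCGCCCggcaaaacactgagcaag
NNT-AS1: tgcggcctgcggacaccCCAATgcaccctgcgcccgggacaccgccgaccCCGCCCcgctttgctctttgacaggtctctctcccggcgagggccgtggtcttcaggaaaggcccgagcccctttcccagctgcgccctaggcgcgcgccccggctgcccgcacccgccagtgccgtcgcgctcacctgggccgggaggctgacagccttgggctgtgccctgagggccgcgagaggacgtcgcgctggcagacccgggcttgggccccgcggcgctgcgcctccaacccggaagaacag
POT1-AS1: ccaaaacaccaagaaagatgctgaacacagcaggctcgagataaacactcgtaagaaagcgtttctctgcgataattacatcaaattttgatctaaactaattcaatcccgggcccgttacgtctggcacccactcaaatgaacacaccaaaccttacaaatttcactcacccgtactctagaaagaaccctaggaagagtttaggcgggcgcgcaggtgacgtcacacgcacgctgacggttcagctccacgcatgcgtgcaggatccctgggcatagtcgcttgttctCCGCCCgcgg
The windows of MAGI2-AS3, NNT-AS1 and POT1-AS1 each hold 1 GC box, those of GTF3C2-AS2 and NNT-AS1 each hold 1 CCAAT box, and none of the 4 holds a TATA box. Their GC content was 59% for GTF3C2-AS2, 62% for MAGI2-AS3, 74% for NNT-AS1 and 50.7% for POT1-AS1.

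The antisense RNAs were higher in knockdown cells more often than lower. The log2 fold change (knockdown against control) was positive for 182 of the 241 (75.5%), with a median of 0.21 and an interquartile range of 0.0025 to 0.44, while over all 15155 genes tested 50.5% were positive and the median was 0.0032. In the test across all genes (edgeR quasi-likelihood, Benjamini-Hochberg adjustment), 90 members had an adjusted p under 0.05 (37.3%, background 48.3%), 76 higher and 14 lower. Below, rose and fell are used only of genes that passed this test. A value that follows a gene without a unit is its log2 fold change. The 76 that rose are 31.5% of the members against a background of 23.3% of all genes, and the 14 that fell are 5.81% against 25%. With a fold of more than 1.5 as a second cutoff, 40 members passed both (16.6%, background 11.7%), 34 of them higher (14.1%, background 5.3%) and 6 lower (2.49%, background 6.43%). Control and knockdown libraries did not overlap for 121 members (50.2%, background 57.3%), 97 of which were higher in every knockdown library (40.2%, background 28.3%) and 24 lower (9.96%, background 29%). By each of these measures the share of members that were higher is above that of all genes and the share that were lower is below it. The share in both directions together is above the background for the calls. It is below the background for the adjusted p alone and for groups that do not overlap.

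The sense partners did not share this balance. Of the 199, 88 (44.2%) had a positive log2 fold change, with a median of -0.03, 43 rose (21.6%, against 23.3% of all genes) and 72 fell (36.2% against 25%). Both cutoffs were passed by 9 in the higher direction (4.52%, background 5.3%) and 10 in the lower (5.03%, background 6.43%), shares near those of all genes; without control replicate 2 these were 5 and 10. With library size alone in place of TMM scaling, the partners turned to 107 of 199 positive with a median of 0.04, and the share of all called genes that were higher went from 45.2% to 55.9%, while the antisense RNAs stayed on the positive side with 192 of 241 and a median of 0.27. Among 11665 protein-coding genes over the count limit 48.3% were positive (median -0.01), 25.2% rose and 29.6% fell. The share of partners that fell is nearer to this than to that of all genes. Among 560 other lncRNA genes over the limit 63.0% were positive (median 0.12), and 50 passed both cutoffs in the higher (8.93%, background 5.3%) and 33 in the lower direction (5.89%, background 6.43%). By median the members were placed above the other lncRNA genes, which were themselves placed above protein-coding genes, as the cumulative plot of log2 fold changes shows.

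**Figure D1:**
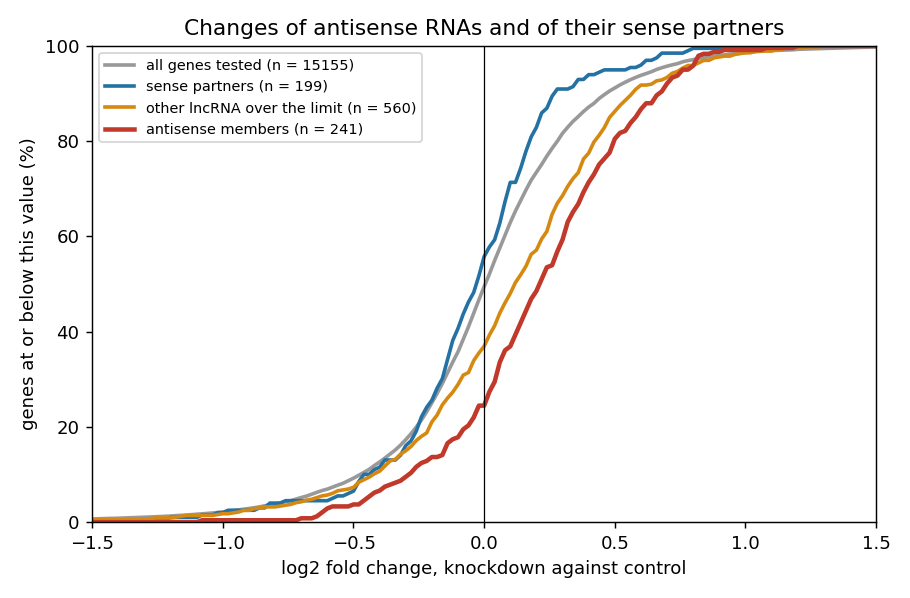
Cumulative share of genes (vertical axis, percent) at or below each log2 fold change, knockdown against control (horizontal axis), for 241 antisense RNAs, 199 sense partners, 560 other lncRNA genes over the count limit and all 15155 genes tested. The curve of the antisense RNAs crosses 0 at 24.5% of its genes and lies to the right of the other curves over most of the range.

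A majority of positive changes was seen at each depth. Of 114 members whose lowest library held 20 to 49 counts, 88 had a positive log2 fold change; of 58 with 50 to 99 counts, 42 did; and of 69 with 100 or more, 52 did (75.4%, median 0.17). Among the 170 antisense genes that were tested but fell under the limit, 113 were positive (66.5%, median 0.27), and 38 passed both cutoffs in the higher (22.4%, background 5.3%) and 10 in the lower direction (5.88%, background 6.43%). Such genes could enter the test on the counts of a single group. Their median SE was 0.315, and all 48 with an adjusted p under 0.05 also passed the fold cutoff. Their shares are therefore shaped by selection and add no support to the result for the members. By suffix, 165 of 222 genes ending in -AS1 were positive (median 0.19), 14 of 15 ending in -AS2 (median 0.40), all but ZNF503-AS2, and 3 of 4 ending in -AS3 (median 0.39).

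Shares of the reads in each library moved in the same direction. The share of the members sums the counts described above and is not independent of them. The members took 0.146%, 0.142% and 0.146% of the counts on genes in control libraries, and 0.168%, 0.171% and 0.179% in knockdown libraries. All lncRNA genes, which include nearly all members, took 0.603% to 0.621% and 0.715% to 0.752%. Reads over no annotated exon on the counted strand can lie in introns as well as between genes. Of uniquely mapped reads they were 4.38% to 4.74% in control and 4.81% to 5.22% in knockdown libraries. Reads counted to no gene because of overlap were 3.88% to 4.12% and 4.22% to 4.23%. In each of these measures the groups did not overlap, and their part in the higher antisense levels was not tested.

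GTF3C2-AS2 showed the largest positive change. It lies on the plus strand of chromosome 2 (27356246 to 27367622), head to head with GTF3C2, which encodes a subunit of the RNA polymerase III factor TFIIIC. GTF3C2-AS2 had normalized counts of 169, 127 and 143 in control libraries, and 336, 353 and 325 in knockdown libraries. All knockdown libraries were above all control libraries, a log2 fold change of 1.20 (SE 0.105, adjusted p = 9.54e-07). GTF3C2 stayed at 2927 ± 69.9 normalized counts in control and 2940.5 ± 31.9 in knockdown cells (log2 fold change 0.01, adjusted p = 0.904), a change within the spread of its libraries.

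KIF23-AS1 and NFYC-AS1 also rose beside a partner that passed neither cutoff. KIF23-AS1, beside the gene for a kinesin of the mitotic midzone, rose from 40.3 ± 4.87 to 69.3 ± 1.85 normalized counts (log2 fold change 0.78, adjusted p = 0.00129), and KIF23 was at 0.07 (adjusted p = 0.119). NFYC-AS1, beside the gene for a subunit of the CCAAT-binding factor NF-Y, rose from 45.9 ± 5.01 to 79.5 ± 2.76 normalized counts (log2 fold change 0.79, adjusted p = 8.09e-04), against 0.05 for NFYC (adjusted p = 0.454).

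SCAMP1-AS1, opposite a secretory carrier membrane protein gene, had normalized counts of 80.4, 86.7 and 80.8 in control libraries, and 141, 157 and 143 in knockdown libraries, with groups that did not overlap (log2 fold change 0.83, adjusted p = 6.97e-05). SGMS1-AS1, opposite the gene of sphingomyelin synthase 1, rose by 0.82 on the log2 scale (adjusted p = 3.65e-04), and CTNS-AS1, which lies inside the gene of the lysosomal cystine transporter, by 0.81 (adjusted p = 9.30e-04; 0.57 and not called in unstranded counts). Their partners had log2 fold changes of 0.05 for SCAMP1, -0.09 for SGMS1 and -0.05 for CTNS, none with an adjusted p under 0.05. TMEM9B-AS1 (log2 fold change 0.81) and RPL26L1-AS1 (0.88) rose together with smaller rises of TMEM9B (0.23) and of RPL26L1 (0.24), a ribosomal protein L26-like gene. PTOV1-AS2 rose by 0.75, with PTOV1 at -0.05 (adjusted p = 0.421); without control replicate 2, which had its lowest count, its log2 fold change was 0.56 and no longer past the fold cutoff.

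In NUTM2A-AS1, SCUBE3-AS1 and LMNTD2-AS1 the named partner did not meet the count limit. NUTM2A-AS1 had normalized counts of 509, 508 and 441 in control libraries, and 1028, 1020.2 and 1017 in knockdown libraries. This is the second largest positive change (log2 fold change 1.07, SE 0.061, adjusted p = 2.01e-08), and NUTM2B-AS1 had one of 0.60 (adjusted p = 2.18e-06). Both belong to a family of near-identical copies on chromosome 10, and only uniquely mapped reads were counted, so the division of reads between them is uncertain. SCUBE3-AS1 (log2 fold change 0.80, adjusted p = 0.00506) and LMNTD2-AS1 (0.75, adjusted p = 0.00848) rose from means of 25.4 and 28.5 normalized counts. The 19 further members past both cutoffs in the higher direction had log2 fold changes of 0.59 to 0.74.

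**Figure D2:**
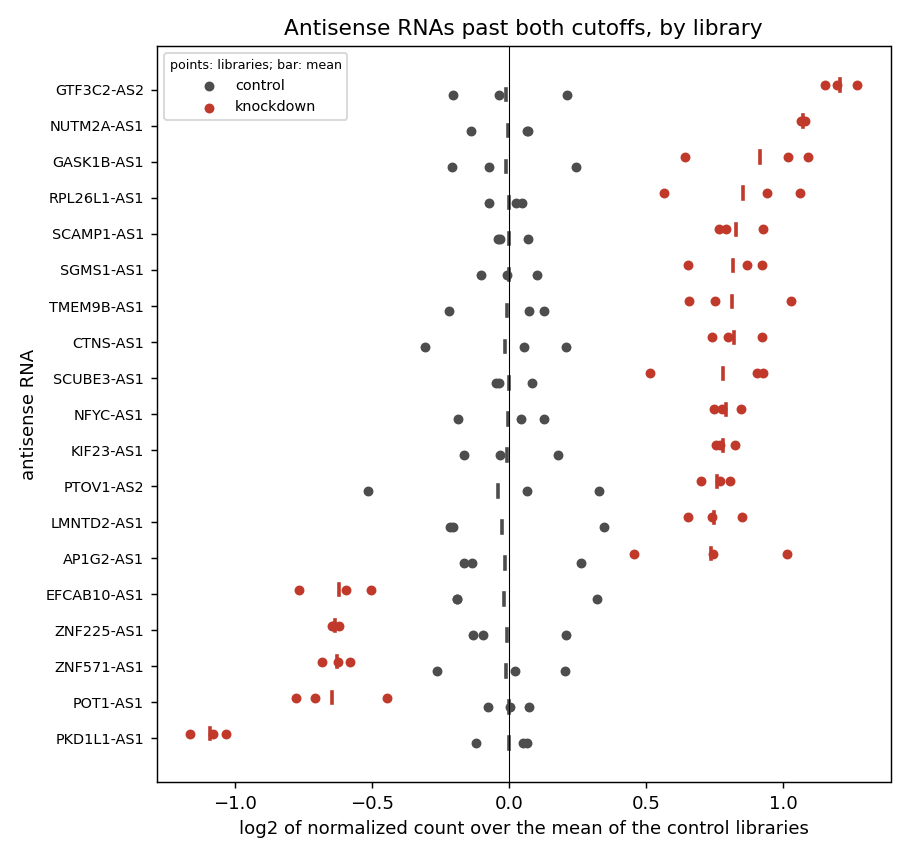
Normalized count of each library over the mean of the control libraries, on a log2 scale (horizontal axis), for 14 of the antisense RNAs with the largest positive changes and 5 with negative changes past both cutoffs (vertical axis). Points are the 3 libraries of each group and bars their means; the knockdown points of each gene lie to 1 side of its control points, with the largest spread among controls in PTOV1-AS2.

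Of the 6 antisense RNAs that fell past both cutoffs, PKD1L1-AS1 showed the largest decrease. It lies inside PKD1L1, a polycystin-family gene of left-right patterning that did not meet the count limit. PKD1L1-AS1 had normalized counts of 196, 194 and 172 in control libraries, and 91.5, 83.5 and 88.5 in knockdown libraries. Every knockdown library was under every control library (log2 fold change -1.09, SE 0.113, adjusted p = 4.57e-06). POT1-AS1, on chromosome 7 from 124929873 to 125482966, was read away from POT1, which encodes the telomere-binding subunit of shelterin. POT1-AS1 had normalized counts of 297, 282 and 312 in control libraries, and 173, 182 and 218 in knockdown libraries. It fell by 0.65 on the log2 scale (SE 0.101, adjusted p = 1.47e-04), and POT1 fell with it from 1896 ± 112 to 1600.1 ± 16.4 normalized counts (log2 fold change -0.24, adjusted p = 8.04e-04). Without knockdown replicate 1 the log2 fold change of POT1-AS1 was -0.57, under the fold cutoff.

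Others that fell had lower counts. ZNF571-AS1 and ZNF225-AS1 lie opposite KRAB-type zinc finger genes on chromosome 19 and had log2 fold changes of -0.63 (adjusted p = 0.0193) and -0.63 (adjusted p = 0.00407), against -0.01 for ZNF571 and 0.09 for ZNF225. EFCAB10-AS1 had normalized counts of 96.5, 137 and 96.3 in control libraries, and 72.9, 77.7 and 64.6 in knockdown libraries (log2 fold change -0.60, adjusted p = 0.00815). The call of ZNF571-AS1 was lost without control replicate 1 (log2 fold change -0.51) and without any 1 of the knockdown replicates (-0.65 to -0.61), that of ZNF225-AS1 without control replicate 2 (-0.52), and that of EFCAB10-AS1 without control replicate 2 (-0.42), its highest library, or without knockdown replicate 3 (-0.54).

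The siRNA guide strand can pair with other transcripts through bases 2 to 8, its seed, as a microRNA does. The guide of LINC01133a is shown from the study's oligonucleotide list with the seed in capitals, followed by the 8-base matches to it (AGAATGGA, in capitals with 10 bases on either side) in POT1-AS1 and ZNF571-AS1, which fell past both cutoffs. The match of POT1-AS1 is at chr7:125144818-125144825, in exon 8 of 1 of 32 annotated transcripts. That of ZNF571-AS1 is at chr19:37569331-37569338, in exon 1 of 1 of 13 transcripts.
LINC01133a guide: uCCAUUCUcagguaacuucaa
POT1-AS1 site: aaagtaaaacAGAATGGAttaccttttt
ZNF571-AS1 site: tctggcagatAGAATGGAatagtaaata
An 8-base match in any annotated transcript was present in 43 of the 241 members (17.8%) and in 17.2% of 15121 genes tested with a transcript sequence. The members with the match had a median log2 fold change of 0.06, with 28 of 43 positive, and the 144 without any match one of 0.21. The 54 with a 7-base match but no 8-base match had a median of 0.30, with 43 positive, above the members without any match. The part of seed matches in these changes was not tested. Over all genes the medians were -0.07 with the 8-base match, -0.0063 with the 7-base match alone and 0.03 without. ZNF225-AS1 holds the 7-base match alone (AGAATGG), and PKD1L1-AS1 and EFCAB10-AS1 hold neither. Genes with a match have longer transcripts, and which of these transcripts were present in 12Z cells was not tested.

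Antisense and sense changes went in the same direction in 103 of the 200 pairs (51.5%) and in opposite directions in 97. In these pairs 152 of the 200 antisense RNAs (76%) and 88 of the 199 partners (44.2%) had a positive log2 fold change. The counts in this paragraph depend in part on these unequal balances, and the share that unrelated pairs would give was not computed. Both were higher in 72 pairs and both lower in 31, the antisense RNA was higher and the partner lower in 80, and the reverse held in 17. Where both had an adjusted p under 0.05, in 40 pairs, 18 went together (15 higher, 3 lower) and 22 went apart, 20 of them with the antisense RNA higher. The 3 that fell together were MSC-AS1, NR2F1-AS1 and POT1-AS1, and the antisense RNA fell beside a rising partner in LOXL1-AS1 and MCM3AP-AS1. Both passed the fold cutoff too in 3 pairs (AP1G2-AS1, FAM131B-AS2 and MAGI2-AS3), the antisense RNA alone in 26 and the partner alone in 16. The antisense log2 fold change was above that of the partner in 146 of 200 pairs, with a median difference of 0.28. Across the 200 pairs, which share their 6 libraries and are not independent replicates, Pearson's r of the log2 fold changes was 0.21 and Spearman's rho 0.18, as a description.

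The share of pairs moving together differed in number between layouts, without a test of that difference. Of 137 head to head pairs 72 moved the same way (r = 0.31 across pairs), of 50 overlapping pairs 29 (r = 0.28), and of 9 pairs with the antisense gene inside the partner 1 (LOXL2-AS1). Of the overlapping antisense RNAs 44 of 50 had a positive log2 fold change (median 0.28), and of the head to head ones 99 of 137 (72.3%, median 0.17). Pairs with overlapping exons moved together in 90 of 169 cases (r = 0.30) and pairs without in 13 of 31 (r = -0.31). With the nearest gene on the opposite strand in place of the named partner, which was the same gene in 179 of 241 cases, 124 of 241 pairs moved the same way.

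**Figure D3:**
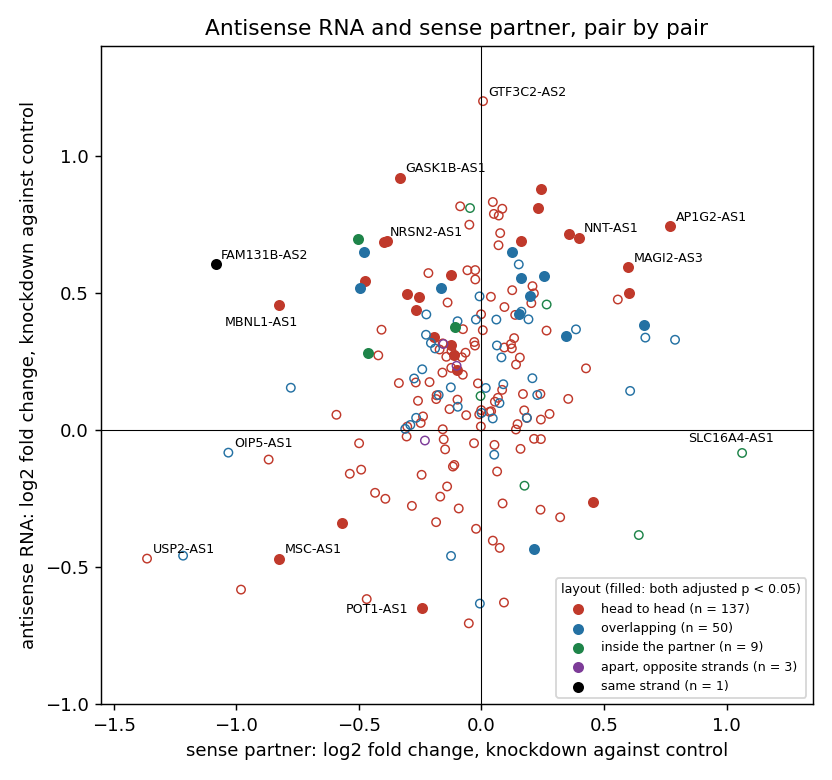
Log2 fold change (knockdown against control) of each antisense RNA (vertical axis) against that of its sense partner (horizontal axis) for the 200 pairs, coloured by layout, with filled points where both had an adjusted p under 0.05. The points spread mainly above the horizontal zero line, 72 in the upper right and 80 in the upper left, with 31 in the lower left and 17 in the lower right.

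Pairs that rose together were led by AP1G2-AS1, MAGI2-AS3, NNT-AS1 and LBX2-AS1. The closest annotated starts of MAGI2-AS3 and MAGI2 lie 5 bp apart, and MAGI2 encodes a membrane scaffold protein. MAGI2-AS3 had normalized counts of 3485, 3486 and 3468 in control libraries, and 5125, 5226 and 5404 in knockdown libraries. MAGI2 had normalized counts of 202, 187 and 192 in control libraries, and 291, 282 and 308 in knockdown libraries. Neither gene had overlapping groups, and their log2 fold changes were alike, 0.59 (SE 0.0364, adjusted p = 3.82e-08) and 0.60 (SE 0.0862, adjusted p = 7.70e-05); without knockdown replicate 3 they were 0.58 and 0.57, just under the fold cutoff, and without control replicate 2 that of MAGI2 was 0.57.

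The closest annotated starts of NNT-AS1 and NNT lie 4 bp apart on chromosome 5, and NNT encodes the mitochondrial transhydrogenase that supplies NADPH. NNT-AS1 had normalized counts of 365, 379 and 339 in control libraries, and 587, 609 and 564 in knockdown libraries. NNT had normalized counts of 2537, 2438 and 2763 in control libraries, and 3436, 3367 and 3385 in knockdown libraries. Both groups were apart for both genes, but the antisense RNA rose more, by 0.70 (SE 0.0682, adjusted p = 2.49e-06) against 0.40 (SE 0.0459, adjusted p = 1.18e-05). AP1G2-AS1 had normalized counts of 32.2, 31.5 and 42.5 in control libraries, and 59.3, 48.5 and 71.4 in knockdown libraries and lies almost within AP1G2, the gene of an adaptor subunit for vesicle sorting. It rose by 0.74 (adjusted p = 0.00786) and AP1G2 from 1376 ± 175 to 2351 ± 18.7 normalized counts, by 0.77 (adjusted p = 1.12e-06). Of the counts at AP1G2-AS1 exons, 94.6% were on the strand of AP1G2. In LBX2-AS1 and its homeobox partner LBX2 the log2 fold changes were 0.50 (adjusted p = 0.011) and 0.60 (adjusted p = 0.0182); LBX2 was called from a mean of 45.8 counts in control cells and not called when control replicate 2 was left out (0.46), nor when knockdown replicate 1 (0.55) or 2 (0.53) was. In ARRDC1-AS1 and ARRDC1, an arrestin-domain gene, they were 0.38 (adjusted p = 0.00227) and 0.66 (adjusted p = 9.39e-06).

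MSC-AS1 and MSC, the gene of the transcription factor musculin, fell together. MSC-AS1 had normalized counts of 495, 493 and 537 in control libraries, and 353, 367 and 383 in knockdown libraries. The groups did not overlap, and MSC-AS1 fell by 0.47 (SE 0.0689, adjusted p = 9.21e-05) while MSC went from 144 ± 20.4 to 81.5 ± 7.6 normalized counts (log2 fold change -0.82, adjusted p = 2.79e-04). NR2F1-AS1 and NR2F1, an orphan nuclear receptor gene, named after their values were seen, fell by 0.34 (adjusted p = 0.00279) and 0.57 (adjusted p = 3.21e-07). LOXL1-AS1 fell by 0.26 (adjusted p = 0.00855) while LOXL1, a collagen cross-linking gene also named after its value was seen, rose by 0.45 (adjusted p = 2.17e-05).

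Of the pairs that moved apart, MBNL1-AS1 and MBNL1 had the most counts behind a large difference. MBNL1 encodes a splicing regulator of the muscleblind family. MBNL1-AS1 had normalized counts of 227, 207 and 219.6 in control libraries, and 320.3, 304 and 271 in knockdown libraries. MBNL1 had normalized counts of 6844, 7349.8 and 6779 in control libraries, and 3937, 3923 and 3965 in knockdown libraries. In every knockdown library the antisense RNA was above and the partner below all control libraries, with log2 fold changes of 0.46 (SE 0.0911, adjusted p = 0.00104) and -0.83 (SE 0.0398, adjusted p = 4.86e-09). The log2 ratio of antisense to sense counts moved from -5.00 ± 0.127 to -3.73 ± 0.129 (mean ± SD, n = 3 each), groups that did not overlap; an exact permutation test of 3 against 3 libraries cannot go below p = 0.1.

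GASK1B-AS1, beside the gene of a Golgi-associated kinase family protein, had normalized counts of 71.9, 78.8 and 98.4 in control libraries, and 129.6, 168 and 177 in knockdown libraries and rose by 0.92 (SE 0.156, adjusted p = 3.02e-04). GASK1B fell from 4484 ± 72.4 to 3563 ± 147 normalized counts (log2 fold change -0.33, adjusted p = 1.55e-05). NRSN2-AS1 had normalized counts of 115, 97.97 and 114 in control libraries, and 194, 159 and 172 in knockdown libraries and rose by 0.69 (adjusted p = 3.77e-04), while NRSN2, which encodes neurensin-2, fell to a log2 fold change of -0.40 (adjusted p = 1.32e-05). In both pairs the groups of both genes were apart.

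SLCO4A1-AS2, inside the gene of an organic anion transporter, rose by 0.70 (adjusted p = 0.00891; 0.54 and not called without knockdown replicate 1) and SLCO4A1 changed by -0.50 (adjusted p = 0.00144). PLS3-AS1 had only normalized counts of 18.9, 30.4 and 30.0 in control libraries, and 41.5, 34.9 and 47.6 in knockdown libraries, with a log2 fold change of 0.65 (adjusted p = 0.0325), opposite the actin-bundling gene PLS3, which fell from 37774 ± 816 to 27066 ± 106 normalized counts (-0.48, adjusted p = 1.08e-07). Leaving out control replicate 1 (0.44), knockdown replicate 1 (0.65) or knockdown replicate 3 (0.55) ended the call. FAM131B-AS2 (0.60, adjusted p = 0.0073; 0.49 and not called without knockdown replicate 2) and FAM131B (-1.08, adjusted p = 5.77e-06) had the largest difference, but the annotation places both on the minus strand, so they are a pair by name only.

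**Figure D4:**
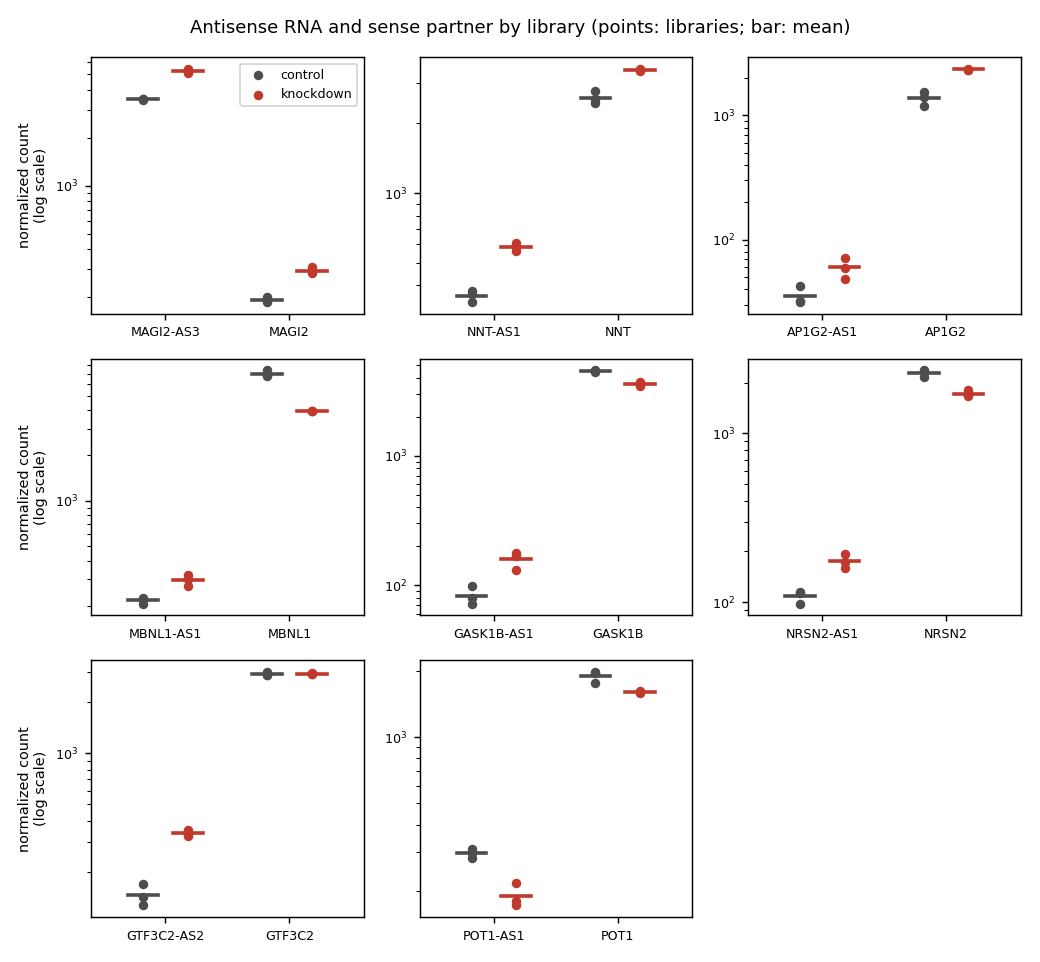
Normalized counts (vertical axis, log scale) of the antisense RNA (left) and the sense partner (right) in 8 pairs, with 1 point per library, 3 libraries per group, and bars at the group means. In the top row both genes are higher in knockdown libraries, in the middle row the antisense RNA is higher and the partner lower, and in the bottom row GTF3C2-AS2 is higher beside a partner without a detected change, and POT1-AS1 is lower with POT1.

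Starting from the partners that changed most, the antisense RNA seldom moved as far. These partners were chosen by the size of their own change, so a smaller change of the other gene follows in part from that choice. Of the 9 partners past both cutoffs in the higher direction, SLC16A4, a monocarboxylate transporter family gene, went from 28.7 ± 2.68 to 61.0 ± 12.3 normalized counts (log2 fold change 1.06, adjusted p = 7.00e-04), though only 0.49 and not called in unstranded counts, while SLC16A4-AS1 had 90.7 ± 12.1 normalized counts in control and 85.4 ± 6.62 in knockdown cells (log2 fold change -0.08, adjusted p = 0.652). MZF1, a zinc finger gene, changed by 0.79 (adjusted p = 9.15e-05) and MZF1-AS1 by 0.33 (adjusted p = 0.148). For HLA-F, a nonclassical MHC class I gene, the values were 0.67 (adjusted p = 0.00117) and 0.34 (adjusted p = 0.231); HLA-F was at 0.52 and not called without control replicate 2. Papilin (PAPLN), an extracellular matrix gene, had 0.64 against -0.38 for PAPLN-AS1 (adjusted p = 0.106), and 0.50 without control replicate 2, also not called.

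CDKN2B-AS1, known as ANRIL, lies across CDKN2B, the gene of the cell cycle inhibitor p15. CDKN2B-AS1 had normalized counts of 175, 196 and 175 in control libraries, and 186, 171 and 249.5 in knockdown libraries. These groups overlapped (log2 fold change 0.14, adjusted p = 0.401), whereas CDKN2B rose from 898 ± 43.4 to 1363 ± 120 normalized counts (0.61, adjusted p = 4.87e-06). CDKN2B was under the fold cutoff once control replicate 3 (0.58) or knockdown replicate 2 (0.55) was left out.

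Of the 10 partners past both cutoffs in the lower direction, USP2, a deubiquitinase gene, fell most, from 483 ± 21.6 to 189 ± 24 normalized counts (log2 fold change -1.36, adjusted p = 7.97e-08), and USP2-AS1 was at 31.8 ± 2.23 normalized counts in control and 23.4 ± 4.97 in knockdown cells (-0.47, adjusted p = 0.106). ALDH1A3, which makes retinoic acid, fell by 1.22 (adjusted p = 1.40e-10), and ALDH1A3-AS1 was at a log2 fold change of -0.46 (adjusted p = 0.115). At the 95th percentile of opposite-strand reads given below, stray ALDH1A3 reads would exceed the count of ALDH1A3-AS1. PRDM6, a transcriptional repressor gene, fell by 0.98 beside -0.58 for PRDM6-AS1 (adjusted p = 0.062). LIFR, the receptor of leukemia inhibitory factor, fell by 0.87 and LIFR-AS1 had -0.11 (adjusted p = 0.733). RAMP2, which encodes a coreceptor of adrenomedullin, had -0.59 (adjusted p = 0.00114) beside 0.06 for RAMP2-AS1; RAMP2 did not pass both cutoffs once control replicate 3 (-0.49) or knockdown replicate 2 (-0.53) was left out. With all libraries none of these 5 antisense RNAs had an adjusted p under 0.05, but without control replicate 2 PRDM6-AS1 was at -0.75 (adjusted p = 0.0155) and passed both cutoffs.

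OIP5-AS1, also called Cyrano, is a conserved and abundant RNA that overlaps OIP5, a centromere-loading gene. OIP5-AS1 had normalized counts of 3349, 3710.4 and 3548 in control libraries, and 3342, 3274 and 3397 in knockdown libraries. Its groups overlapped at a log2 fold change of -0.08 (SE 0.0428, adjusted p = 0.127), while OIP5 fell from 723 ± 11.9 to 354 ± 12.2 normalized counts (-1.03, adjusted p = 2.64e-08). MYLK, the gene of myosin light chain kinase, fell by 0.78 (adjusted p = 1.28e-07), and MYLK-AS1 had 44.5 ± 5.09 normalized counts in control and 49.0 ± 5.3 in knockdown cells (0.15, adjusted p = 0.495).

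The members that collected the most counts were FGD5-AS1, MAGI2-AS3, OIP5-AS1, PAX8-AS1 and OTUD6B-AS1. Per kilobase of annotated exon their mean levels were 796 for FGD5-AS1, 246 for MAGI2-AS3, 154 for OIP5-AS1, 124 for OTUD6B-AS1 and 98.1 for PAX8-AS1 normalized counts. FGD5-AS1 did not change detectably (log2 fold change -0.06, SE 0.0383, adjusted p = 0.241). PAX8-AS1, beside the gene of a transcription factor of Müllerian epithelium, had 0.07 (SE 0.0484, adjusted p = 0.283) and PAX8 0.03 (adjusted p = 0.863). OTUD6B-AS1 rose from 1102 ± 71.7 to 1332 ± 37.3 normalized counts (0.27, adjusted p = 7.61e-04) beside a small decrease of OTUD6B (-0.11, adjusted p = 0.0463), the gene of a deubiquitinase.

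Of the widely studied antisense RNAs among the members, HOXA-AS2, from the HOXA cluster, rose from 492 ± 14.9 to 570.3 ± 11.1 normalized counts (0.21, adjusted p = 0.0102), and its neighbour HOXA-AS3 had -0.16 (adjusted p = 0.367). ZEB1-AS1 stayed at 68.5 ± 7.17 normalized counts in control and 68.4 ± 9.19 in knockdown cells (0.01, adjusted p = 0.956), while ZEB1, a repressor of epithelial genes, had -0.30 (adjusted p = 1.15e-04). TMPO-AS1 had 0.21 (adjusted p = 0.139) beside -0.16 for TMPO, a gene of the nuclear lamina (adjusted p = 0.00166), and PSMA3-AS1 0.13 (adjusted p = 0.0839) beside -0.17 for the proteasome gene PSMA3 (adjusted p = 0.00174). FOXD2-AS1 (0.35, adjusted p = 0.115), EPB41L4A-AS1 (0.12, adjusted p = 0.206) and WDFY3-AS2 (0.27, adjusted p = 0.136) did not pass the test.

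The strand of the reads bears on every value above, since a partner read counted on the wrong strand would appear as antisense. In 979 protein-coding genes with at least 1000 counts and no annotated gene on the other strand within 5000 bp, a median of 0.215% of reads were on the opposite strand, with a 95th percentile of 0.587%. At that percentile, stray partner reads over shared exons would make up more than 10% of the antisense count in 9 of 169 pairs with overlapping exons and more than 50% in 4. Among the 4, named after their values were seen, were ALDH1A3-AS1, THBS2-AS1 and TUBA1B-AS1. For ALDH1A3-AS1 the estimate was 174% of its count. Among the members past both cutoffs the highest value was 9.08%, in AP1G2-AS1, and over the 191 pairs at or under 10% the antisense RNA had a positive log2 fold change in 148 and the pair moved together in 98.

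The unstranded counts ignore strand and leave out reads over exons shared by overlapping genes, so they are not a sum of both strands. Between stranded and unstranded counts, 4 members with an adjusted p under 0.05 in either turned direction. MCM3AP-AS1 had normalized counts of 183, 194 and 168 in control libraries, and 117, 149 and 138 in knockdown libraries on its own strand, with groups apart and a log2 fold change of -0.44 (adjusted p = 0.0075), against 0.02 unstranded (adjusted p = 0.865). Its partner MCM3AP, a nuclear export gene, rose by 0.21 (adjusted p = 5.71e-04). ZNF225-AS1 went from -0.63 to 0.13, MYLK-AS1 from 0.15 to -0.56 and THBS2-AS1, opposite the thrombospondin 2 gene, from 0.08 to -0.32. Unstranded counts also ended the calls of POT1-AS1 (-0.58) and ZNF571-AS1 (-0.53) and took ALDH1A3-AS1 (-0.80) and MZF1-AS1 (0.75) past them.

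The RNA exosome and its nuclear adaptors, which degrade many antisense transcripts, were described from a list of 20 genes, all tested. Of these, 5 rose (25%, against 23.3% of all genes), 7 fell (35% against 25%) and 2 passed both cutoffs (10%, background 11.7%), and the median log2 fold change was 0.03 with 11 of 20 positive. Those past both cutoffs, both lower, were TENT4B (also PAPD5, the poly(A) polymerase of the TRAMP complex), from 2606 ± 173 to 1520.0 ± 19.4 normalized counts (log2 fold change -0.78, adjusted p = 4.70e-08), and EXOSC5, a core subunit, from 598 ± 74.5 to 392.3 ± 38.2 normalized counts (log2 fold change -0.61, adjusted p = 1.61e-04). EXOSC6, another core subunit, rose from 678 ± 21.5 to 949 ± 73.6 normalized counts (log2 fold change 0.49, adjusted p = 2.67e-05), and PABPN1, a nuclear poly(A)-binding protein, from 398 ± 41.2 to 578 ± 14.2 normalized counts (log2 fold change 0.53, adjusted p = 7.40e-05). The share past both cutoffs is near that of all genes, and the part of the list in the antisense changes was not tested.

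At the count limit itself, 8 members had a lowest count of exactly 20, among them ASH1L-AS1, with raw counts of 32, 21 and 20 in control and 39, 34 and 24 in knockdown libraries, and ATP8B1-AS1, with 26, 20 and 23 and 31, 37 and 30. Just outside were genes with a lowest count of 19, such as PARD6G-AS1, with 34, 37 and 19 and 34, 41 and 32, and PRKCZ-AS1, with 38, 24 and 23 and 19, 21 and 22.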

How the data were processed

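Gene counts in 6 RNA-seq libraries of 12Z cells were used as the authors deposited them: raw counts per gene and strand, made with STAR 2.7.6a and SAMtools 1.10 on GRCh38.p13 (per the submitters' processing notes) from uniquely mapped reads with GENCODE release 36. Of the strand-specific counts 94.0% were in the reverse-strand column (column 4), which was used. Symbols, positions and exons came from GENCODE release 44 by gene identifier; 241 of 60660 identifiers had no symbol. Groups were taken from the labels.

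Genes were filtered with filterByExpr (minimum count 10), scaled by TMM and tested with edgeR 4.0.16 (quasi-likelihood, Benjamini-Hochberg adjustment; R 4.3.3); a call needed an adjusted p under 0.05 and a fold over 1.5. SE is the standard error of the log2 fold change. DESeq2 1.42.0, other scalings, filters, count limits, the unstranded counts, a replicate block and each library left out were alternatives. The edgeR and DESeq2 steps were tested on simulated data. The members and lists were chosen with earlier results of these data known. Named were LINC01133; called members, up to 15 in each direction; members with a called partner, up to 10 in each direction; up to 6 pairs moving apart and 6 together with both adjusted p under 0.05; the 5 members with the most counts; a list of widely studied antisense RNAs; genes at the count limit; members that turn direction without strand; and called exosome genes. EXOSC6, PABPN1, NUTM2B-AS1 and other genes outside these were named after their values were seen. Between 27742562 and 37551194 counts per library set the precision. No pair of libraries was identical. A few antisense RNAs that the rule would name are not reported here.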

Additional observations from a re-analysis of the deposited data

How the results depend on the processing

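The excess of higher antisense RNAs kept its direction under every alternative run: 192 of the 241 had a positive log2 fold change with library size alone, 166 of the 229 still tested with unstranded counts, and 173 to 180 with 1 library left out. This count was added after seeing the data. Calls numbered 36 to 42 with 1 library left out, 40 with median-of-ratios scaling, 47 with library size alone, 37 with DESeq2, 41 without a filter, 42 with 10 counts required in every library and 37 unstranded, against 40. Partners past both cutoffs numbered 15 to 20 with 1 library left out, against 19. Without the fold cutoff, 90 antisense RNAs (37.3%) and 115 partners (57.8%) passed, against 48.3% of all genes. With a member limit of 10 counts, 64 of 329 antisense RNAs and 31 of 273 partners were called; with a limit of 50 counts, 20 of 127 and 7 of 100, and 49 of 100 pairs moved the same way. These counts follow from the construction of the alternatives, which test or admit other numbers of genes. Pairs in the same direction numbered 101 to 112 of 200 with 1 library left out and 114 with library size alone.

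Of 1376 comparisons for 106 named genes, 1331 kept their call status, 38 lost the call and 6 gained it. In 1 comparison a called gene reversed: ZNF225-AS1, at 0.13 unstranded. The cause was not tested. An unchanged call status can include a change of sign, as in MCM3AP-AS1, MYLK-AS1 and THBS2-AS1 with unstranded counts. Library size alone ended the calls of EFCAB10-AS1 (-0.54), ZNF225-AS1 (-0.57), ZNF571-AS1 (-0.57) and RAMP2 (-0.53), and DESeq2 those of PLS3-AS1 and ZNF571-AS1. Replicate numbers did not pair the libraries (correlations of same-numbered deviations -0.015, 0.0049 and 0.057). With the replicate number as a block, 40 antisense RNAs and 18 partners were called and all calls went from 1778 to 1747; among the named genes it ended only the call of RAMP2 (-0.58). Low counts limit the data: the median SE was 0.157 for the antisense RNAs and 0.0507 for the partners, so a change of the same size passes the test less readily in the former.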
